A study of Homo sapiens with 6 samples.

Results

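The comparison set the triple-negative breast cancer line SUM1315 against 2 luminal lines, SKBR3 and T47D, in RNA taken from polysomes, and asked which of it differed whatever the oxygen level. All 6 libraries of the series entered it: 2 of SUM1315 against 4 of the luminal lines. SUM1315 is labelled triple negative, SKBR3 luminal and HER2-positive, and T47D luminal A. All 3 are established, unmodified human lines from mammary tissue. Each gave 1 library after 8 hours at 1% oxygen (hypoxia) and 1 at 21% oxygen (normoxia), so that oxygen level pairs the libraries across lines. Cycloheximide was added before lysis to stall elongating ribosomes, and polysomes were collected from sucrose gradients loaded with equal protein. The media differed between the lines: that of SUM1315 held insulin and EGF, that of T47D insulin, and that of SKBR3 neither. A single line stands for the triple-negative subtype here, so that subtype, line and medium cannot be told apart. Nor can more mRNA in the cell be told apart from more ribosomes on each mRNA, because RNA of whole cells was not analysed here.

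Polysomes are mRNAs that carry several ribosomes, so their RNA is weighted toward what a cell is translating. Luminal breast cancer cells keep the traits of the secretory epithelium: a network of transcription factors around FOXA1 and GATA3, simple keratins, and tight junctions that join neighbouring cells. Many triple-negative lines have instead the traits of cells that have passed through an epithelial-mesenchymal transition (EMT), in which repressors of the ZEB, SNAI and TWIST families turn off junction genes and the cells gain vimentin filaments, matrix and proteases.

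The deposited values are RPKM, reads scaled to transcript length and library depth, which allow levels to be compared between genes. They implied depths of 21700000 to 33400000 reads, and between 9675 and 10842 genes reached 1 RPKM in each. Of 30726 genes in the table, the 12312 at 1 RPKM or more in at least 2 libraries were tested. Across genes, libraries of one line correlated at 0.977 to 0.982 (Pearson, log2 scale), SKBR3 with T47D at 0.816 to 0.84, and SUM1315 with the luminal lines at 0.676 to 0.725. Differences are given on the scale of log2(RPKM + 1) as SUM1315 minus the luminal lines, ± SE from limma with oxygen level as a term, and understate those of genes with low RPKM. A gene is called higher or lower at a Benjamini-Hochberg adjusted p under 0.05. Paired values are given with 1% oxygen first and 21% oxygen second.

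SUM1315 polysomes held more mRNA of 2558 genes (20.8% of those tested) and less of 1160 (9.42%). The difference reached 1 or more on the log2 scale in 2009 of the higher and 993 of the lower genes, and 4 or more in 85 and 101. The median difference over all genes tested was 0.212. Rescaling the libraries moved that median to 0.0435 (median-ratio), 0.0661 (quantile) or 0.32 (equal RPKM sums), so list medians are to be read against it. In 2545 of the higher genes both SUM1315 values lay above all 4 luminal values, which was so of 4426 tested genes (35.9%). In 1156 of the lower genes both lay below, which was so of 2799 (22.7%). Tested against each luminal line in turn, with the spread taken from the differences left within lines, 3863 genes (31.4%) were higher and 2144 (17.4%) lower in SUM1315 than in both lines. These included each of the 2558 and 1160. A gene could enter the test through 1 group: 1050 genes reached 1 RPKM in 2 libraries only by way of SUM1315, and 1650 only by way of the luminal lines. Among the 9612 genes at 1 RPKM or more in both groups, 1608 (16.7%) were higher and 688 (7.16%) lower, and each gene list below is to be read against both backgrounds. The spread in the test includes that between SKBR3 and T47D, and p-values measure the spread between these 6 libraries, not between triple-negative and luminal tumours. With cell line as a correlated unit 571 genes were higher and 254 lower with limma, without the SUM1315 library at 1% oxygen 610 and 104, and without that at 21% oxygen 661 and 111.

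The 4 markers chosen for the lines split as their labels have it, with 1 exception in the test. VIM, the intermediate filament of mesenchymal cells, stood at 1161 and 407 RPKM in SUM1315, at 5.14 and 4.96 RPKM in SKBR3 and at 9.17 and 8.61 RPKM in T47D. Its difference was 6.48 ± 0.47 (adjusted p = 0.0016). CAV1, the coat protein of caveolae, stood at 420 and 388 RPKM in SUM1315 and between 2.47 and 4.37 RPKM in the luminal lines, a difference of 6.60 ± 0.26 (adjusted p = 0.000928). FOXA1, the pioneer factor that opens chromatin for the oestrogen receptor, stood at 0.669 and 0.929 RPKM in SUM1315, at 27.2 and 47.2 RPKM in SKBR3 and at 39.5 and 55.5 RPKM in T47D, a difference of -4.55 ± 0.26 (adjusted p = 0.00107). GATA3, the master factor of the luminal lineage, stood at 3.36 and 1.79 RPKM in SUM1315, at 6.95 and 8.89 RPKM in SKBR3 and at 143 and 108 RPKM in T47D. Both SUM1315 values of GATA3 lay below all luminal ones, but the luminal lines themselves were far apart and the difference of -3.25 ± 1.52 was not called (adjusted p = 0.174). The labelled subtypes also showed in their receptors: ESR1 and PGR, the oestrogen and progesterone receptors, stood between 4.54 and 11 RPKM in T47D and under 0.04 RPKM in the other 4 libraries, while ERBB2 (HER2) stood at 743 and 615 RPKM in SKBR3, 8.76 and 8.12 RPKM in T47D and 5.52 and 5.34 RPKM in SUM1315.

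**Figure D1:**
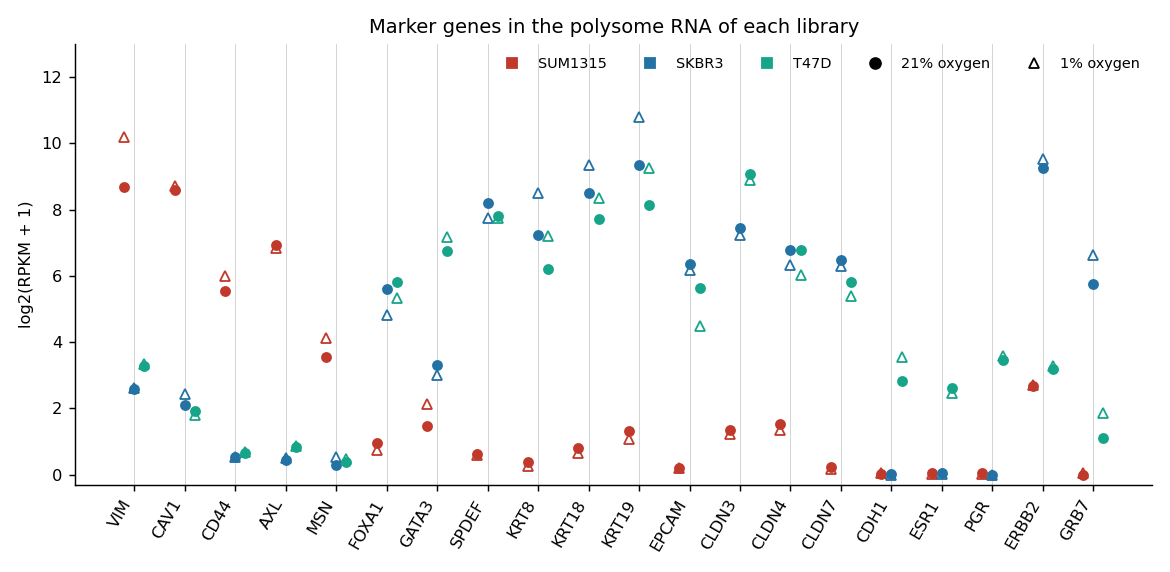
Level of 20 marker genes, as log2(RPKM + 1), in each of the 6 libraries. Colours mark the lines, open triangles 1% oxygen and filled circles 21% oxygen. SUM1315 stands apart from both luminal lines in VIM and CAV1 on the left and in FOXA1, SPDEF and the keratins in the middle, whereas ESR1, PGR, ERBB2 and GRB7 on the right separate T47D or SKBR3 from the other lines.

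Of the genes called higher, BEX1, a small adaptor of neural signalling, had the largest difference, with 298 and 306 RPKM in SUM1315 against 0.376 to 1.82 RPKM in the luminal lines (7.28 ± 0.38, adjusted p = 0.00104). IGFBP3, which binds insulin-like growth factors outside the cell, stood at 576 and 276 RPKM against 1.2 to 5.19 RPKM (7.05 ± 0.42). FOSL1, the FRA1 subunit of the AP-1 transcription factor, stood at 259 and 237 RPKM against 0.709 to 1.67 RPKM (6.86 ± 0.31). The membrane protein EMP3, the metallothionein MT1E and the caveolar coat protein CAVIN3 were among the 10 largest as well, together with GSTP1 and GPX1, described below with the glutathione genes. Several mRNAs abundant in the luminal lines stood near 1 RPKM in SUM1315. S100A16, a calcium-binding protein, stood at 1.09 and 1.49 RPKM in SUM1315 against 438 to 1857 RPKM in the luminal lines (-8.71 ± 0.77, adjusted p = 0.00256). KRT19, a simple keratin, stood at 1.09 and 1.48 RPKM against 283 to 1793 RPKM (-8.20 ± 0.67). CD24, a glycosylated surface protein used to sort breast cancer cells, stood at 0.836 and 0.834 RPKM against 227 to 806 RPKM (-7.77 ± 0.56). CRABP2, which carries retinoic acid to the nucleus, stood at 6.72 and 8.01 RPKM against 464 to 2845 RPKM (-7.07 ± 0.93), and ADIRF at 0.659 and 1.03 RPKM against 248 to 408 RPKM (-7.34 ± 0.28).

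TMSB10, which binds actin monomers, had the highest mean level in SUM1315 of any gene called higher, with 2723 and 2091 RPKM there, 854 and 776 RPKM in SKBR3 and 482 and 297 RPKM in T47D (2.10 ± 0.48, adjusted p = 0.0314). FTL, the ferritin light chain, followed with 2514 and 1661 RPKM against 57.2 to 78.3 RPKM in the luminal lines (5.00 ± 0.24, adjusted p = 0.000943). The heavy chain FTH1 differed less, with 956 and 680 RPKM against 74.1 to 259 RPKM (2.58 ± 0.60). ACTG1, a cytoplasmic actin, stood at 1116 and 1037 RPKM against 142 to 330 RPKM (2.42 ± 0.43), the tubulin TUBB at 748 and 394 RPKM against 93.5 to 242 RPKM (1.70 ± 0.35), and the metallothionein MT2A at 1057 and 899 RPKM against 48 to 246 RPKM (3.19 ± 0.75). The mitochondrially encoded MT-ND4 (0.88 ± 0.22), the ubiquitin gene UBB (0.99 ± 0.25) and PTMS (1.31 ± 0.28) completed the 10 with VIM. Of the abundant luminal genes called lower, HSPB1, a small heat shock protein, stood at 293 and 321 RPKM in SUM1315 against 1056 to 1921 RPKM (-2.35 ± 0.27). S100A11 stood at 663 and 806 RPKM against 1783 to 3130 RPKM (-1.74 ± 0.30), so that unlike S100A16 it remained an abundant mRNA in SUM1315. CHCHD2 (-1.33 ± 0.30), the cyclophilin PPIA (-1.35 ± 0.18), the peroxiredoxin PRDX5 (-0.84 ± 0.20), the transgelin TAGLN2 (-0.90 ± 0.19) and RAB1B (-1.85 ± 0.42), a GTPase of the early secretory path, were lower by smaller amounts. PRDX5 lost its call whichever of the 6 libraries was left out, and TAGLN2, MT-ND4 and UBB lost theirs in 5 of 6 cases. FTL and VIM kept theirs in all 6, S100A16 lost its call without the hypoxic SUM1315 library alone, and the other abundant genes named here lost theirs without either SUM1315 library.

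**Figure D2:**
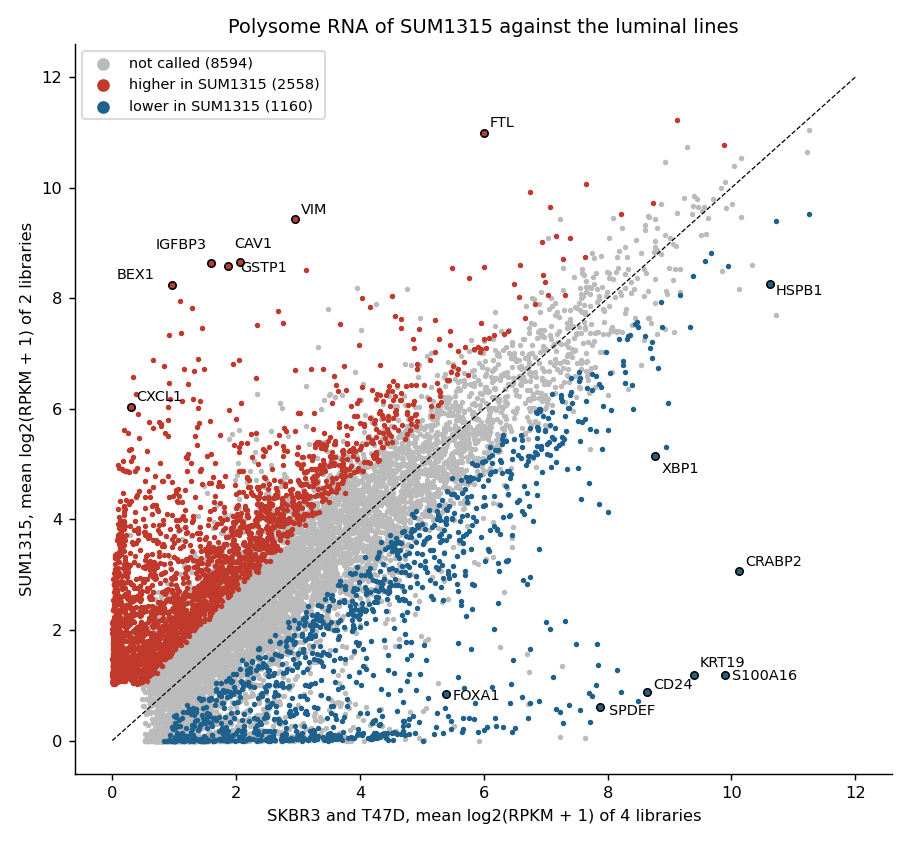
Mean log2(RPKM + 1) of each tested gene in SUM1315 (2 libraries, vertical axis) against SKBR3 and T47D (4 libraries, horizontal axis). Red points are the 2558 genes called higher in SUM1315, blue points the 1160 called lower, and the dashed line marks equal levels. A band of blue points along the bottom holds genes such as SPDEF, CD24, KRT19 and S100A16, high in the luminal lines and near the floor in SUM1315.

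Transcription factors that drive EMT were higher in SUM1315. Of 13 tested, 9 were called higher and none lower, with a median difference of 1.41. Of the 13, 8 passed the filter only through SUM1315 and so had to differ, and among the 5 at 1 RPKM or more in both groups 2 were higher (median 0.693). FOSL1 apart, TWIST1 was the most abundant, with 80.7 and 92.5 RPKM in SUM1315, 0.254 and 0.27 RPKM in SKBR3 and 3.85 and 2.89 RPKM in T47D (5.22 ± 0.73, adjusted p = 0.00854). ETS1 stood at 15.3 and 9.57 RPKM against 0.0464 to 0.0692 RPKM (3.63 ± 0.20), and TWIST2 at 9.5 and 9.3 RPKM against 0 to 0.0963 RPKM (3.33 ± 0.15). The zinc finger repressors were at lower levels: SNAI2 at 3.96 and 4.2 RPKM, ZEB1 at 2.58 and 2.25 RPKM and ZEB2 at 2.22 and 1.13 RPKM, each under 0.06 RPKM in every luminal library. Their differences were 2.29 ± 0.13, 1.74 ± 0.12 and 1.37 ± 0.18. PRRX1 (1.34 ± 0.12) and TCF4 (1.41 ± 0.13) were also called. SNAI1, at 1.39 and 1.38 RPKM in SUM1315, overlapped SKBR3, at 0.933 and 1.79 RPKM, and was not called (0.40 ± 0.34, adjusted p = 0.409). With any 1 library left out, 8 of the 9 calls held, and with cell line as a correlated unit 7 were called.

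Of 26 genes of the mesenchymal cytoskeleton and surface, 13 were higher and 1 lower, with a median of 1.91, and 9 and 0 held with any 1 library left out. Besides VIM and EMP3 (236 and 218 RPKM against 0.782 to 2.05 RPKM, 6.54 ± 0.28), the receptor tyrosine kinase AXL stood at 113 and 121 RPKM against 0.344 to 0.833 RPKM (6.22 ± 0.24). The tropomyosin TPM2 stood at 103 and 115 RPKM against 0.536 to 1.09 RPKM (5.94 ± 0.24), and CD44, the hyaluronan receptor, at 62.6 and 45.9 RPKM against 0.431 to 0.608 RPKM (5.17 ± 0.21). The actin bundler FSCN1 (4.35 ± 0.19) and moesin, MSN (3.42 ± 0.18), which ties actin to the membrane, were under 0.7 RPKM in every luminal library. Not every gene of this kind was higher. MYL9, a myosin light chain, stood at 0.421 and 0.443 RPKM in SUM1315 against 4.96 and 5.07 RPKM in SKBR3 and 139 and 119 RPKM in T47D (-4.29 ± 1.75, adjusted p = 0.132), and S100A6 at 184 and 232 RPKM against 699 to 6173 RPKM (-3.02 ± 0.93, adjusted p = 0.0678). The 1 gene called lower was TAGLN2, at 378 and 442 RPKM against 683 to 916 RPKM. CDH2, the N-cadherin of mesenchymal cells, was below the filter at 1 and 0.87 RPKM in SUM1315 and under 0.07 RPKM in the luminal lines.

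Caveolae, the membrane pits built from caveolins and cavins, were higher in the genes of their coat. Of 8 genes tested, 6 were higher and none lower. Next to CAV1, CAVIN3 stood at 130 and 68.2 RPKM against 0.0929 to 0.405 RPKM (6.24 ± 0.30, adjusted p = 0.000943), CAVIN1 at 99.6 and 139 RPKM against 1.83 to 5.5 RPKM (4.85 ± 0.41), and CAV2 at 17.6 and 19.1 RPKM against 0.126 to 0.28 RPKM (4.01 ± 0.17). The ATPase EHD2, which sits at the caveolar neck, was higher by 2.77 ± 0.24. PACSIN2, the membrane-bending protein, overlapped the luminal lines at 5.39 and 4.56 RPKM against 4.77 to 8.91 RPKM (-0.27 ± 0.25). Of the 6 calls, 4 held with any 1 library left out.

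Of 23 extracellular matrix genes tested, 13 were higher and 2 lower (median 1.48), although 9 of the 23 passed only through SUM1315. COL1A1, the chain of type I collagen, stood at 119 and 91.7 RPKM in SUM1315 against 0.525 to 2.34 RPKM (5.57 ± 0.40, adjusted p = 0.00158). LOX, which cross-links collagen, stood at 144 and 52.6 RPKM against 0.433 to 1.67 RPKM (5.56 ± 0.45), and TGFBI at 137 and 75.2 RPKM against 1.1 to 2.29 RPKM (5.35 ± 0.27). Fibronectin, FN1, went the other way without being called: it stood at 0.285 and 0.356 RPKM in SUM1315 against 0.604 to 1.75 RPKM. PLOD2, a collagen lysyl hydroxylase, stood at 4.65 and 0.878 RPKM against 7.48 to 10.1 RPKM (-1.66 ± 0.38, adjusted p = 0.0321). LAMA5, a laminin chain of epithelial basement membrane, stood at 1.42 and 0.658 RPKM against 4.14 to 6.92 RPKM (-1.70 ± 0.19, adjusted p = 0.00474). Of the 13 higher calls 11 held with any 1 library left out, and of the 2 lower ones none did.

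Of 15 matrix proteases and their inhibitors, 12 were higher and 1 lower, and among the 10 at 1 RPKM or more in both groups 8 were higher. PLAU, the urokinase that activates plasminogen, stood at 71.8 and 71 RPKM in SUM1315 against 0.732 to 1.3 RPKM (5.25 ± 0.22, adjusted p = 0.000928). Its receptor PLAUR (20.4 and 17.3 RPKM against 0.335 to 3.09 RPKM, 3.18 ± 0.58) was higher with it. MMP14, the membrane-bound collagenase, stood at 47 and 51.7 RPKM against 0.462 to 0.717 RPKM (5.00 ± 0.19), and ADAM12 at 27.8 and 30.6 RPKM against 0.0607 to 0.178 RPKM (4.75 ± 0.17). CTSZ, a lysosomal cathepsin, was lower at 72.5 and 66.7 RPKM against 179 to 213 RPKM (-1.52 ± 0.19), and MMP15, at 0.462 and 0.523 RPKM against 1.47 to 14.1 RPKM, was not called (-1.85 ± 0.90, adjusted p = 0.187). Of the 12 higher calls 5, and of the lower none, held with any 1 library left out, and 8 and 0 were called with cell line as a correlated unit. Of 9 integrins, the receptors for matrix, 6 were higher and 1 lower, of which 3 and 0 remained in number under either alternative. ITGA3 (3.08 ± 0.21), ITGB1 (2.84 ± 0.21) and ITGA4 (2.21 ± 0.16) led. ITGB4, the integrin of hemidesmosomes, stood at 0 and 0.0136 RPKM in SUM1315 against 1.68 to 6.59 RPKM (-2.04 ± 0.35, adjusted p = 0.0145), and ITGB6 at 0.149 and 0.175 RPKM overlapped T47D.

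Transcription factors of the luminal lineage were lower in SUM1315. Of 24 tested, 13 were lower and none higher (median -2.22), and 16 passed the filter only through the luminal lines. Among the 8 at 1 RPKM or more in both groups, 3 were lower. SPDEF, an ETS factor of secretory cells, stood at 0.498 and 0.554 RPKM in SUM1315, at 216 and 290 RPKM in SKBR3 and at 215 and 223 RPKM in T47D (-7.27 ± 0.21, adjusted p = 0.000928). TFAP2C, an AP-2 factor, stood at 0.0303 and 0.154 RPKM against 16.3 to 65.7 RPKM (-5.07 ± 0.63). XBP1, the factor of the secretory stress response, kept 35.1 and 33.8 RPKM in SUM1315 against 285 to 595 RPKM (-3.62 ± 0.35). EHF (-3.34 ± 0.34), OVOL2 (-2.72 ± 0.31) and GRHL2 (-2.52 ± 0.59), epithelial factors known to oppose EMT, stood under 0.05 RPKM in SUM1315. IRX3, at 66.7 and 63.4 RPKM against 42.3 to 47.4 RPKM, was the largest positive difference and was not called (0.54 ± 0.19, adjusted p = 0.0895). Of the 13 calls, 2 held with any 1 library left out, and 6 were made with cell line as a correlated unit.

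Of 28 genes of hormone response and luminal secretion, 8 were lower (28.6%) and none higher, and 17 passed the filter only through the luminal lines. Among the 11 at 1 RPKM or more in both groups, 3 were lower. The 20 genes not called included some present in only 1 luminal line. KRT8 stood at 0.198 and 0.288 RPKM in SUM1315 against 73.1 to 362 RPKM in the luminal lines (-6.97 ± 0.57, adjusted p = 0.00208), and its partner KRT18 at 0.562 and 0.736 RPKM against 209 to 656 RPKM (-7.76 ± 0.45, adjusted p = 0.00109). AGR2, a disulphide isomerase of secretory cells, stood at 1.41 and 1.73 RPKM against 89.8 to 614 RPKM (-6.48 ± 1.01), and TFF1, a trefoil peptide, at 0.739 and 0.562 RPKM against 38.8 to 352 RPKM (-6.17 ± 0.96). PIP and TFF3, 2 other secreted products, lay below all luminal values but were not called (adjusted p = 0.15 and 0.06), and T47D stood far above SKBR3 in each. Of the 8 calls, 3 held with any 1 library left out.

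Epithelial junction and polarity genes had the highest share called lower of the 31 lists. Of 43 tested, 31 were lower and none higher, with a median of -3.32, against 9.42% lower among all genes. SUM1315 was below both luminal lines, each tested in turn, in 37. As 29 of the 43 passed only through the luminal lines, the 14 at 1 RPKM or more in both groups are the fairer count, and 6 of these were lower. MAL2, which sorts cargo across polarised cells, stood at 0.251 and 0.281 RPKM in SUM1315, at 473 and 529 RPKM in SKBR3 and at 114 and 67 RPKM in T47D (-7.38 ± 1.02, adjusted p = 0.00824). RAB25, an epithelial recycling GTPase, stood at 0.403 and 0.518 RPKM against 174 to 216 RPKM (-7.00 ± 0.21, adjusted p = 0.000928). CLDN3, a claudin of tight junctions, stood at 1.32 and 1.56 RPKM against 149 to 535 RPKM (-6.87 ± 0.67). The matriptase ST14 (-6.74 ± 0.39), its inhibitors SPINT1 (-6.29 ± 0.57) and SPINT2 (-6.71 ± 0.31), the adhesion molecule EPCAM (-5.46 ± 0.56) and the claudins CLDN4 (-5.03 ± 0.22) and CLDN7 (-5.80 ± 0.37) were lower in the same way. The splicing factors ESRP1 (-2.74 ± 0.74) and ESRP2 (-3.32 ± 0.21), which set epithelial splice forms, stood under 0.5 RPKM in SUM1315. CDH1, the E-cadherin of adherens junctions and the best known target of EMT repressors, did not separate the lines: it stood at 0.0372 and 0.0227 RPKM in SUM1315, at 0 and 0.0147 RPKM in SKBR3 and at 10.8 and 6.12 RPKM in T47D (-1.56 ± 1.27, adjusted p = 0.393). CLDN12, at 5.76 and 5.19 RPKM in SUM1315 and 2.63 to 3.64 RPKM in the luminal lines, had the largest positive difference and was not called (0.60 ± 0.20). Of the 31 calls, 14 held with any 1 library left out.

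Because the ZEB and SNAI repressors bind E-boxes and FOSL1 binds AP-1 sites, the 250 bases before the annotated start were searched on both strands for the E-box CAGGTG. The AP-1 site TGANTCA was searched in the same way. Each motif was counted apart, whether or not it overlapped the other. Promoters come from RefSeq (GRCh38.p14), the build the submitters' processing notes name as GRCh38. An E-box was found in 12 of 26 junction genes with a promoter in the table (46.2%), in 24.2% of all genes called lower, in 29.2% of those lower by 3 or more, in 14.2% of those called higher, in 15.8% of all tested and in 17.5% of all 35116 starts. An AP-1 site was found in 4.08% of the genes called higher, in 9.09% of those higher by 3 or more, in 3.68% of all tested and in 6.57% of all starts. A promoter was matched for 75.5% of the tested genes and 60.5% of the junction genes, which is too few for a check over these sets, so that the shares describe the matched genes only. Of the 12 junction genes with an E-box 8 were called lower, against 31 of all 43 tested, and OCLN, PRRG4, DSC2 and DSG2 were not called. Promoters of 3 called junction genes are shown, CRB3 and AP1M2 for several E-boxes and RAB25 for its large difference with a single one, followed by those of GSTP1 and PLAUR, 2 genes called higher, for an AP-1 site. Each runs 5′ to 3′ on the gene's strand, ends at the base before the start, and has the motif in capitals on either strand.
CRB3: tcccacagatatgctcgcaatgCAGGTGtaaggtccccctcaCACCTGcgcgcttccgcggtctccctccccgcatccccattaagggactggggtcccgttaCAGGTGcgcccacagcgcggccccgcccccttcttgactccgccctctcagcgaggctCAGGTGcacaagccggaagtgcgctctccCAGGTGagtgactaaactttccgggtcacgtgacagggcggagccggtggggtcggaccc
AP1M2: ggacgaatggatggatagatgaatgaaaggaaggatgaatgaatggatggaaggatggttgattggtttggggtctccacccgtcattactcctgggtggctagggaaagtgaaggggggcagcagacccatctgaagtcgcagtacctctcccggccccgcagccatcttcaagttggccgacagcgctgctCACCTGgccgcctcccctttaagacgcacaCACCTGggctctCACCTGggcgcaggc
RAB25: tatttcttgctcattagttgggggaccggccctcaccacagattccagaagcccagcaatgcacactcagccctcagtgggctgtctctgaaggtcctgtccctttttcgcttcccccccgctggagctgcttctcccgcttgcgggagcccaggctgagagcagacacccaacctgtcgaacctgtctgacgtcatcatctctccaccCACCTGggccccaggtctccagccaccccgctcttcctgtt
GSTP1: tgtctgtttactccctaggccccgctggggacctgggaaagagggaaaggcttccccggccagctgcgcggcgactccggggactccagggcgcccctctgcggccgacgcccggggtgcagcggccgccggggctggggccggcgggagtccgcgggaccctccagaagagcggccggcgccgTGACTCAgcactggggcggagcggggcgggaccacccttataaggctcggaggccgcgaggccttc
PLAUR: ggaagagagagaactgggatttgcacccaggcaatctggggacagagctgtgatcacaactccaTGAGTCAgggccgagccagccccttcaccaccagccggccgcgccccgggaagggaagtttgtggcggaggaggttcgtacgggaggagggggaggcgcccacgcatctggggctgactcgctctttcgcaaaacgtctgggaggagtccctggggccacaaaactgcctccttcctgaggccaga
CRB3, which anchors the apical polarity complex, lies at chr19:6464021-6464270 (plus strand) in this window and has 5 E-boxes, which begin 228, 208, 147, 89 and 60 bases before the start. Its mRNA stood at 0.596 and 0.0864 RPKM in SUM1315 against 21.1 to 34.8 RPKM in the luminal lines (-4.40 ± 0.19, adjusted p = 0.000928). AP1M2, the epithelial adaptor subunit of basolateral sorting, has 3, at 57, 27 and 15 bases in chr19:10587313-10587562 (minus strand), and stood at 0.164 and 0.271 RPKM against 15.4 to 24.7 RPKM (-4.03 ± 0.26). RAB25 has 1, at 41 bases in chr1:156060910-156061159 (plus strand). The AP-1 site of GSTP1 begins 66 bases before the start in chr11:67583562-67583811 (plus strand), and that of PLAUR 186 bases before it in chr19:43670170-43670419 (minus strand). A match describes the sequence and was not tested as a binding site.

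Triple-negative tumours often express basal keratins, and SUM1315 did not. KRT5, KRT14 and KRT17 were listed at 0 RPKM in both SUM1315 libraries, and the basal regulator TP63 stood at 0.0121 and 0.0185 RPKM. Of 25 basal epithelial genes, 15 were below the filter in all and 8 were tested, of which 2 were higher and 2 lower, with 0 and 1 held when any 1 library was left out. ID4, an inhibitor of helix-loop-helix factors, stood at 11.9 and 19.5 RPKM against 0.784 to 1.72 RPKM (2.89 ± 0.30, adjusted p = 0.00375), and the plakin DST at 3.36 and 2.46 RPKM against 0.138 to 0.406 RPKM (1.61 ± 0.18). SFN, the 14-3-3 sigma protein of epithelia, stood at 0.243 and 0.141 RPKM against 39.2 to 109 RPKM (-5.81 ± 0.38, adjusted p = 0.00139), and TRIM29 (-1.61 ± 0.60) and KRT15 (-1.75 ± 0.58) were not called. Markers of other cell types were weighed the same way, since fibroblasts share much of the mesenchymal list. The 23 markers of leukocytes, endothelium, fibroblasts and blood in the table summed to 140 to 170 RPKM in SUM1315, 9.53 to 10.7 RPKM in SKBR3 and 6.41 to 9.64 RPKM in T47D, and the part of such cells in the results was not tested. Of the 23, 19 were below the filter. These 19 summed to 1.12 to 1.58 RPKM in SUM1315, 1.77 to 1.81 RPKM in SKBR3 and 1.28 to 2.36 RPKM in T47D. The fibroblast genes COL3A1 and PDGFRB were listed at 0 in both SUM1315 libraries, DCN also, and the leukocyte gene PTPRC stood at 0.005 and 0 RPKM. The 4 others were tested: COL1A1 (above), CD68 (44.3 and 45.6 RPKM against 0.538 to 5.88 RPKM, 3.78 ± 0.81) and FAP (4.75 and 1.97 RPKM against 0.0215 to 0.0476 RPKM, 2.00 ± 0.25) were higher, and HBA1 was lower (-1.68 ± 0.27).

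The ERBB receptors and their ligands carry growth factor signals. Of 11 tested genes of the ERBB family, its ligands and regulators, 5 were higher (45.5%) and 1 lower (9.09%). Of these calls 2 and 1 held with any 1 library left out. EREG, NRG1 and NRG2 passed the filter only through SUM1315, and 4 of the 11, ERBB3 among them, only through the luminal lines. Among the 4 at 1 RPKM or more in both groups, 2 were higher and none lower. The ligands EREG (5.17 and 7.95 RPKM against 0.019 to 0.0653 RPKM, 2.84 ± 0.18, adjusted p = 0.00127), NRG1 (6.01 and 6.25 RPKM against 0.00839 to 0.0368 RPKM, 2.81 ± 0.14), NRG2 (2.55 ± 0.32) and HBEGF (2.24 ± 0.32) were higher. So was ERRFI1, the feedback inhibitor of EGFR, at 95.5 and 75.5 RPKM against 6.2 to 24.1 RPKM (2.82 ± 0.54). EGF in the SUM1315 medium moves with these differences, and its part in them was not tested. The receptor ERBB3 stood at 0.211 and 0.12 RPKM in SUM1315 against 8.44 to 9.87 RPKM (-3.10 ± 0.19, adjusted p = 0.00114). ERBB2 (-3.64 ± 2.43) and the adaptor GRB7 beside it (-3.83 ± 1.87) were not called, with high levels in SKBR3 alone, and AREG, a ligand, was not called either (-3.02 ± 1.77). Of 16 genes of the HER2 amplicon 2 were lower, ORMDL3 (-2.48 ± 0.46) and THRA (-1.80 ± 0.34), and neither held with any 1 library left out. The list's median was -3.16 against SKBR3 and -0.0937 against T47D.

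Of 20 other receptor tyrosine kinases tested, 5 were higher (25%) and 6 lower (30%). AXL, DDR2 and EPHB2 passed the filter only through SUM1315, and 8 of the 20 only through the luminal lines. Among the 9 at 1 RPKM or more in both groups, 2 were higher and 2 lower. After AXL came EPHA2 (40.9 and 30.2 RPKM against 0.661 to 4.22 RPKM, 3.58 ± 0.64, adjusted p = 0.0166), the collagen receptor DDR2 (8.77 and 6.66 RPKM against 0.116 to 0.138 RPKM, 2.95 ± 0.16), FGFR1 (14 and 12.6 RPKM against 0.761 to 1.03 RPKM, 2.90 ± 0.18) and EPHB2 (1.06 ± 0.12). Of the 5, 4 held with any 1 library left out. Among the genes called lower, DDR1 stood at 11.7 and 7.85 RPKM against 40.8 to 58.3 RPKM (-2.26 ± 0.20), FGFR2 at 0.114 and 0.14 RPKM against 3.13 to 7.35 RPKM (-2.27 ± 0.33), FGFR3 at 1.29 and 0.808 RPKM against 6.66 to 9.91 RPKM (-2.18 ± 0.19) and EPHB3 at 0.431 and 0.0814 RPKM against 5.06 to 6.33 RPKM (-2.38 ± 0.19). None of the 6 lower calls held with any 1 library left out, and 3 were called with cell line as a correlated unit.

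TGF-beta signalling drives EMT in many epithelia. Of 33 genes of the TGF-beta and BMP pathways, 11 were higher and 5 lower. With any 1 library left out 4 and 1 of these held, and with cell line as a correlated unit 4 and 2 were called. The ligand TGFB1 stood at 50.3 and 57.3 RPKM in SUM1315 and at 1.19 and 1.14 RPKM in T47D, but in SKBR3 it was 11.9 RPKM at 1% oxygen and 0.339 RPKM at 21% (4.19 ± 0.86, adjusted p = 0.0245). SMAD3, which carries the signal to the nucleus, stood at 27.2 and 29.6 RPKM against 1.27 to 2.06 RPKM (3.46 ± 0.24, adjusted p = 0.00143), and the receptor TGFBR2 at 10.3 and 12.6 RPKM against 0.0787 to 1.7 RPKM (2.92 ± 0.50). The ligand TGFB3 was lower at 1.84 and 1.28 RPKM against 13.1 to 19 RPKM (-2.70 ± 0.25), the decoy receptor BAMBI at 0.467 and 0.733 RPKM against 37.3 to 109 RPKM (-5.18 ± 0.42), and INHBB, an activin subunit, at 0.156 and 0.244 RPKM against 38.4 to 152 RPKM (-5.93 ± 0.72, adjusted p = 0.00568). The other main receptor, TGFBR1, was at 5.71 and 3.84 RPKM in SUM1315, 140 and 96.2 RPKM in SKBR3 and 10.9 and 14.6 RPKM in T47D, and was not called (-2.81 ± 1.25).

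Targets of YAP and TEAD, the effectors of the Hippo pathway, were higher in part: of 25 tested, 10 were higher and none lower (median 0.782), of which 6 held with any 1 library left out. IGFBP3, AXL and CCN1, at 532 and 249 RPKM against 7.55 to 8.06 RPKM (5.39 ± 0.30, adjusted p = 0.00106), led. CCN2 stood at 71.4 and 42.3 RPKM against 0.385 to 1.56 RPKM (4.91 ± 0.40). TEAD3 (-1.53 ± 0.57) and AJUBA (-0.70 ± 0.23) lay below all luminal values without being called. Of 32 genes of the Wnt and Notch pathways, 13 were higher and 3 lower, 10 of the 32 having passed only through SUM1315. Of these calls 9 and 0 held with any 1 library left out, and 5 and 1 were made with cell line as a correlated unit. The ligand WNT5B stood at 54.7 and 63.9 RPKM against 0.233 to 0.44 RPKM (5.49 ± 0.19), the factor TCF7 at 29.2 and 26.5 RPKM against 0.118 to 0.329 RPKM (4.57 ± 0.18), and the receptor FZD8 at 7.99 and 4.41 RPKM against 0.0742 to 0.165 RPKM (2.64 ± 0.22). The ligand WNT7B (0.00894 and 0.0181 RPKM against 9.48 to 49.6 RPKM, -4.43 ± 0.78) and the co-receptor LRP5 (-2.08 ± 0.53) were lower.

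Of 25 cytokine and NF-kB genes, 9 were higher (36%) and 1 lower (4%), and 6 of the 25, CXCL1, CSF1 and LIF among them, passed the filter only through SUM1315. Among the 14 at 1 RPKM or more in both groups, 3 were higher and none lower. The chemokine CXCL1 stood at 68.3 and 61.5 RPKM in SUM1315 against 0.11 to 0.304 RPKM (5.75 ± 0.19, adjusted p = 0.000928), the macrophage growth factor CSF1 at 32.4 and 41.8 RPKM against 0.268 to 0.653 RPKM (4.68 ± 0.24) and the cytokine LIF at 20.9 and 8.99 RPKM against 0.124 to 0.291 RPKM (3.61 ± 0.29). The NF-kB subunits RELB (2.97 ± 0.33) and NFKB2 (1.65 ± 0.20) were also higher. With any 1 library left out, 6 of the 9 held. TNFAIP2 was lower (-2.45 ± 0.34), and CXCL16, at 4.26 and 3 RPKM in SUM1315 against 5.47 to 66.1 RPKM, was not called (-2.24 ± 1.29). Of 31 interferon and antigen presentation genes, 9 were higher (29%) and 2 lower (6.45%, under the background). Of these calls 1 and 0 held with any 1 library left out. Among the 22 at 1 RPKM or more in both groups, 5 were higher and 1 lower. HLA-F, a class I molecule whose reads can be shared with its relatives, stood at 10.8 and 12.1 RPKM against 0.0555 to 0.657 RPKM (3.22 ± 0.28). NT5E, the ecto-nucleotidase CD73, stood at 26.8 and 23.4 RPKM against 0.174 to 1.95 RPKM (3.88 ± 0.47). IFITM2 (-3.18 ± 0.41) and IFITM3 (0.237 and 0.48 RPKM against 13.2 to 50.3 RPKM, -4.41 ± 0.66), antiviral membrane proteins, were lower. BST2 was at 777 and 703 RPKM in T47D, 6.11 and 8.1 RPKM in SKBR3 and 1.49 and 3.22 RPKM in SUM1315, and was not called (-4.57 ± 2.58).

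Of 28 glutathione and NRF2 target genes, 9 were higher and 6 lower, of which 5 and 1 held with any 1 library left out. GSTP1, a glutathione transferase, stood at 364 and 401 RPKM in SUM1315 against 1.84 to 3.69 RPKM (6.71 ± 0.33, adjusted p = 0.000943), and the peroxidase GPX1 at 184 and 141 RPKM against 0.506 to 1.54 RPKM (6.43 ± 0.33). HMOX1, haem oxygenase, stood at 302 and 157 RPKM against 5.25 to 5.55 RPKM (5.09 ± 0.28). In the other direction the peroxidase GPX3 stood at 0.216 and 0.16 RPKM against 27.2 to 59 RPKM (-4.98 ± 0.36, adjusted p = 0.00158), SRXN1 at 9.74 and 7.49 RPKM against 49.4 to 97 RPKM (-2.77 ± 0.36) and the microsomal transferase MGST1 at 7.58 and 8.38 RPKM against 28 to 57.4 RPKM (-2.34 ± 0.34). Of 28 lipid genes, 8 were higher and 1 lower, of which 2 and 0 held in the same way. FABP5, a fatty acid carrier, stood at 114 and 123 RPKM against 0.425 to 3.61 RPKM (5.51 ± 0.58, adjusted p = 0.00396), and the desaturases FADS1 (3.50 ± 0.77) and FADS2 (3.49 ± 0.60) were higher. ACSL1 was lower (-0.82 ± 0.20). FASN, the fatty acid synthase, stood at 173 and 77.1 RPKM in SKBR3, while SUM1315, at 9.84 and 9.39 RPKM, lay within the range of T47D (-1.94 ± 1.23).

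Of 24 tested genes of the G1/S transition, 3 were higher (12.5%) and 4 lower (16.7%), and none of these calls held with any 1 library left out. CDKN2A, the INK4A and ARF tumour suppressor, stood at 0.105 and 0.107 RPKM in SUM1315 against 14.2 to 45.9 RPKM (-4.43 ± 0.56, adjusted p = 0.00625). Its neighbour CDKN2B stood at 0 and 0.0115 RPKM against 2.4 to 4.42 RPKM (-2.15 ± 0.21, adjusted p = 0.00314). The kinase they inhibit, CDK6, stood at 14.2 and 18 RPKM against 0.366 to 2.1 RPKM (3.13 ± 0.43), and RB1 was higher by 1.82 ± 0.18. MDM2 (-0.80 ± 0.18) was lower. Among 15 stem and progenitor markers, 4 were higher (26.7%) and 2 lower (13.3%). IGF2BP2 (3.37 ± 0.31), HMGA2 (4.91 and 4.42 RPKM against 0.0072 to 0.212 RPKM, 2.36 ± 0.17), IGF2BP3 (1.69 ± 0.18) and ID1 (1.02 ± 0.24) were higher, and CD24 and SOX4 (-1.52 ± 0.35) lower. Of these calls 2 and 1 held with any 1 library left out. IGF2BP2, HMGA2 and IGF2BP3 passed the filter only through SUM1315. Among the 10 markers at 1 RPKM or more in both groups, 1 was higher and 1 lower. HMGA1, at 702 and 685 RPKM against 78.3 to 316 RPKM, lay above all luminal values without being called (2.22 ± 0.64, adjusted p = 0.0596).

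Ribosome assembly needs RNA polymerase I and many processing factors. Of 112 ribosome biogenesis and RNA polymerase I genes, 51 were higher and 1 lower (median 0.898), and of the 108 at 1 RPKM or more in both groups 49 were higher. Tested against each luminal line in turn, 74 were higher and 3 lower than both. LTV1, a small-subunit assembly factor, stood at 22.6 and 52.4 RPKM in SUM1315, 4.24 and 8.38 RPKM in SKBR3 and 3.79 and 8.05 RPKM in T47D (2.38 ± 0.20, adjusted p = 0.00214). RRP9, of the U3 particle that processes pre-rRNA, stood at 58.7 and 117 RPKM, 12.7 and 19.9 RPKM and 11.3 and 19.2 RPKM (2.36 ± 0.20). POLR1G, a subunit of RNA polymerase I, stood at 19.7 and 34.4 RPKM against 3.23 to 6.92 RPKM (2.29 ± 0.21). SBDS, which frees the large subunit for translation, was the gene called lower, at 23.5 and 33.1 RPKM against 82.4 to 202 RPKM (-2.09 ± 0.30). NVL (-1.29 ± 0.81) and PAK1IP1 (-0.86 ± 0.34) were not called. Of the 51 calls 1 held with any 1 library left out, and with cell line as a correlated unit 3 were higher. The count was 37 under median-ratio scaling and 39 under quantile normalization.

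Of 84 cytosolic ribosomal protein genes, 4 were higher and 2 lower, a smaller share in both directions than among all genes, and their median of 0.204 turned to -0.0121 under median-ratio scaling. RPL5, which binds 5S rRNA, stood at 482 and 562 RPKM in SUM1315 against 96.7 to 154 RPKM (2.09 ± 0.22, adjusted p = 0.00393), RACK1, a scaffold on the small subunit, at 301 and 309 RPKM against 82.9 to 104 RPKM (1.77 ± 0.20) and RPL4 at 311 and 371 RPKM against 112 to 141 RPKM (1.45 ± 0.21). RPL19 was 2725 and 3102 RPKM in SKBR3 against 258 to 489 RPKM in the other lines (-1.95 ± 1.11, adjusted p = 0.245), and RPL35A was not called either (-1.75 ± 0.78). Reads of ribosomal protein genes can be shared with near-identical pseudogenes, so their levels are uncertain. Of 53 translation factors 10 were higher (18.9%) and 1 lower (1.89%), under the 20.8% and 9.42% of all tested genes. None of these calls held with any 1 library left out or with cell line as a correlated unit. The same holds of the 6 ribosomal protein calls when any 1 library is left out. The poly(A)-binding protein PABPC1 stood at 206 and 114 RPKM against 22 to 34.9 RPKM (2.41 ± 0.22, adjusted p = 0.00301), followed by PABPC4 (1.53 ± 0.24) and EIF2S1 (1.49 ± 0.30), the alpha subunit of eIF2. EIF4EBP2, a repressor of cap-dependent initiation, stood at 8.2 and 7.36 RPKM against 19.8 to 63.8 RPKM (-2.09 ± 0.54, adjusted p = 0.0437). The cap-binding factor EIF4E itself was not called, at 7.81 and 9.59 RPKM against 10.6 to 19.9 RPKM (-0.63 ± 0.26).

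Of 76 tested nuclear genes of oxidative phosphorylation, all at 1 RPKM or more in both groups, 25 were lower and 1 higher, with a median of -0.862. NDUFA4, of complex IV, stood at 17.5 and 21.8 RPKM in SUM1315 against 153 to 224 RPKM (-3.21 ± 0.25, adjusted p = 0.00191), NDUFB1 at 6.46 and 6.48 RPKM against 20.3 to 64.5 RPKM (-2.24 ± 0.58) and NDUFA2 at 46.8 and 50.1 RPKM against 156 to 303 RPKM (-2.09 ± 0.31). The exception was ATP5F1A, the alpha subunit of ATP synthase, at 27.5 and 23.1 RPKM against 5.08 to 10.8 RPKM (1.71 ± 0.25). Transcript length moved with this result: the list's median transcript was 1510.5 bases, and among the shortest 2997 of all tested genes with a length (median 1517 bases) the median difference was -0.149, against 0.377 among the longest 2997. Its part in the result was not tested. Of the 25 calls, 1 held with any 1 library left out, and 38 of the 76 were lower than each luminal line.

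Of 37 tested HIF targets and glycolysis genes, which respond to oxygen, 4 were higher (10.8%) and 1 lower (2.7%). Both shares were under those of all tested genes, and 1 and 0 of these calls held with any 1 library left out. ENO2, a glycolytic enolase, stood at 58 and 7.92 RPKM in SUM1315 against 0.119 to 1.81 RPKM (3.92 ± 0.61, adjusted p = 0.0116), ADM, a vasodilator peptide, at 184 and 49.1 RPKM against 1.45 to 28.1 RPKM (adjusted p = 0.0241), and the lactate transporter SLC16A1 at 6.09 and 6.29 RPKM against 0.129 to 0.175 RPKM (2.65 ± 0.14). LDHB, at 318 and 263 RPKM in SUM1315, 71.7 and 43.6 RPKM in SKBR3 and 3.23 and 3.28 RPKM in T47D, was not called (4.22 ± 1.49, adjusted p = 0.0953). ALDOC was lower, at 1.39 and 0.3 RPKM against 2.86 to 26.6 RPKM (-2.55 ± 0.50). SLC16A3 (-2.29 ± 1.13) and NDRG1 (-3.01 ± 1.85) were not called.

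HOX genes hold positional identity. Of 18 tested 8 were higher, and 2 were lower, and 7 of the 18 passed only through SUM1315. Of these calls 6 and 0 held with any 1 library left out. From the HOXD cluster, HOXD9 stood at 12 and 6.85 RPKM (3.27 ± 0.22) and HOXD13 at 5.9 and 6.33 RPKM (2.81 ± 0.14), and HOXB6 stood at 7.69 and 8.3 RPKM (2.76 ± 0.37). The luminal lines held at most 1.07 RPKM of these 3. HOXC13 (1.6 and 1.96 RPKM against 17.1 to 40.5 RPKM, -3.29 ± 0.29) and HOXC11 (-2.90 ± 0.75), from the far end of the HOXC cluster, were lower. Among 18 cancer-testis antigens 2 were higher (11.1%) and 2 lower (11.1%), and 9 of the 18 passed the filter only through the luminal lines. MAGEA1 (22 and 32.4 RPKM against 0.192 to 1.67 RPKM, 3.90 ± 0.43) was higher and XAGE2 (-4.38 ± 0.70) lower. Both calls were lost when either SUM1315 library was left out. Near-identical copies in these X-linked families can share reads, which calls for caution. Of 8 microRNA host transcripts 3 were higher (37.5%), led by MIR31HG at 5.19 and 6.2 RPKM against 0.0442 to 0.193 RPKM (2.58 ± 0.16). Of the 8, 3 passed the filter only through SUM1315, and of the 2 at 1 RPKM or more in both groups none was called. H19, an imprinted noncoding RNA, was at 5394 and 2126 RPKM in SKBR3 alone and was not called (-6.06 ± 3.95).

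**Figure D3:**
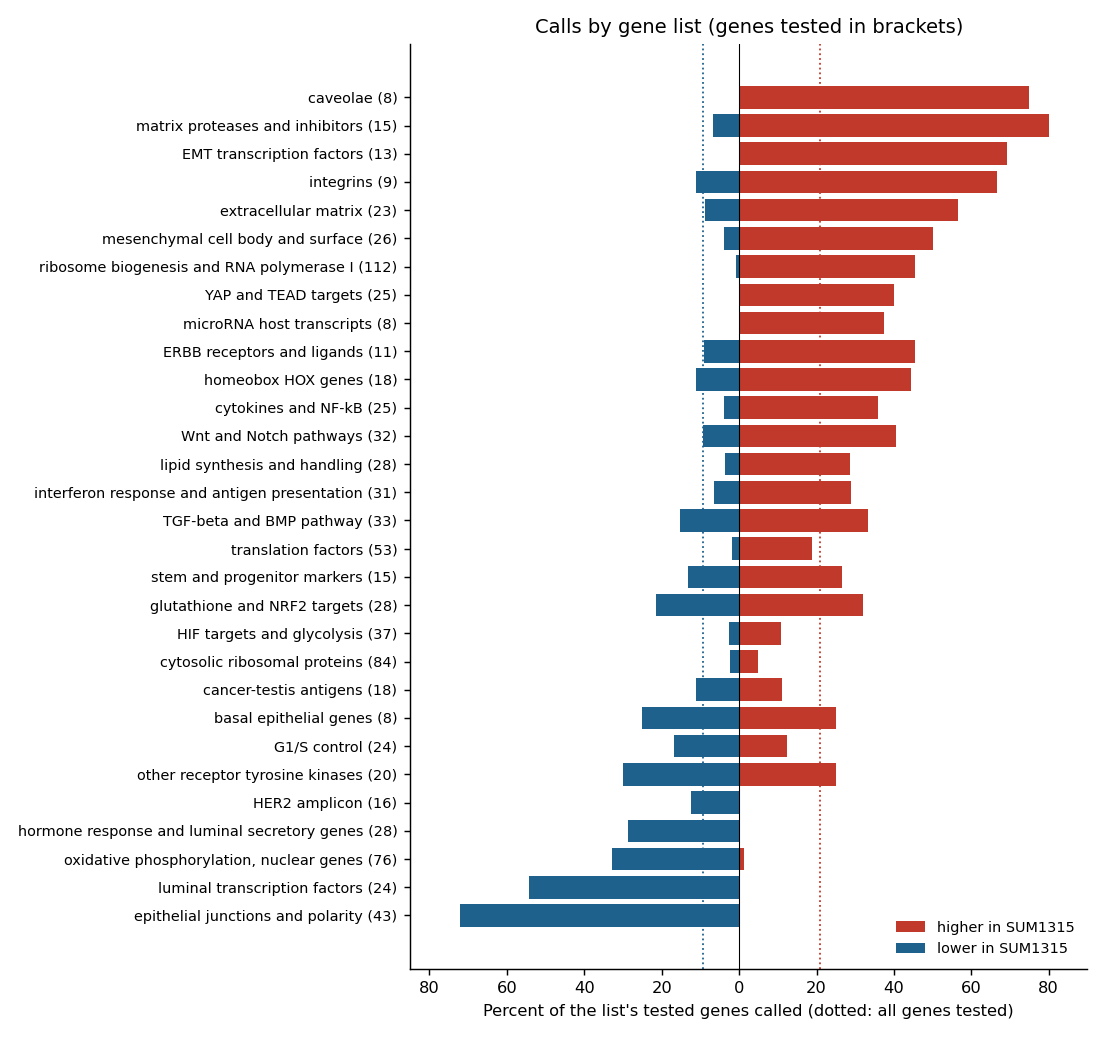
Share of the tested genes of each list called higher (red, to the right) or lower (blue, to the left) in SUM1315, in percent, with the number tested in brackets. Dotted lines mark the 20.8% and 9.42% of all tested genes. Proteases, caveolae and EMT factors lie at one end, and junctions and luminal transcription factors at the other.

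Across the 12312 genes, the difference at 1% oxygen correlated with that at 21% at 0.971 (Pearson, across genes, which are not independent replicates). All 3718 called genes had the same sign at both, which largely follows from their calling on these same libraries and is no separate evidence. In 2545 of the 2558 higher and 1156 of the 1160 lower genes, both SUM1315 values lay outside all 4 luminal values. No gene was called for a dependence of the difference on oxygen (0% of those tested), and 27 had an unadjusted p under 0.05. With 2 residual degrees of freedom this test has little power. It has no term for line, so the difference in level between SKBR3 and T47D stays in its error. Genes whose luminal lines stand alike are favoured by it, and the lack of calls does not show that differences are independent of oxygen. The strongest dependence was that of DEPP1, a FOXO target. DEPP1 reached 64.2 RPKM in SUM1315 at 1% oxygen and 1.67 RPKM at 21%, against 0.134 to 0.432 RPKM in the luminal lines. Its difference was 5.84 at 1% oxygen and 1.02 at 21%, an interaction of 4.82 ± 0.40 (unadjusted p = 0.000485, adjusted p = 1). IL6, the inflammatory cytokine, stood at 3.3 and 1.1 RPKM in SUM1315, at 0.0175 and 0 RPKM in SKBR3 and at 0 RPKM in both T47D libraries, with a difference of 2.09 at 1% oxygen and 1.07 at 21% (interaction 1.02 ± 0.23, unadjusted p = 0.0149, adjusted p = 1). MT1L, CCDC184 and the readthrough transcript RPL36A-HNRNPH2, whose reads may belong to either partner, also had a larger difference at 1% oxygen (interactions of 1.49, 1.37 and 2.11). The reverse was seen in DSP, the desmosome linker desmoplakin: it stood at 10.6 and 2.03 RPKM in SKBR3 and 13.2 and 2.91 RPKM in T47D, and under 0.05 RPKM in SUM1315, so that the deficit of SUM1315 was -3.63 at 1% oxygen and -1.75 at 21% (unadjusted p = 0.026, adjusted p = 1). The noncoding AC087591.1 (interaction -1.69) and AC006942.1 (-0.95) were listed at 0 in both SUM1315 libraries and had the same form. AC087632.2 (interaction -2.09) and the mitochondrial tRNA MT-TC (-1.33) completed the 5 most negative. VIM, with 1161 against 407 RPKM within SUM1315, had a difference of 7.20 at 1% oxygen and 5.75 at 21%, an interaction of 1.45 ± 0.79 (unadjusted p = 0.151, adjusted p = 1).

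**Figure D4:**
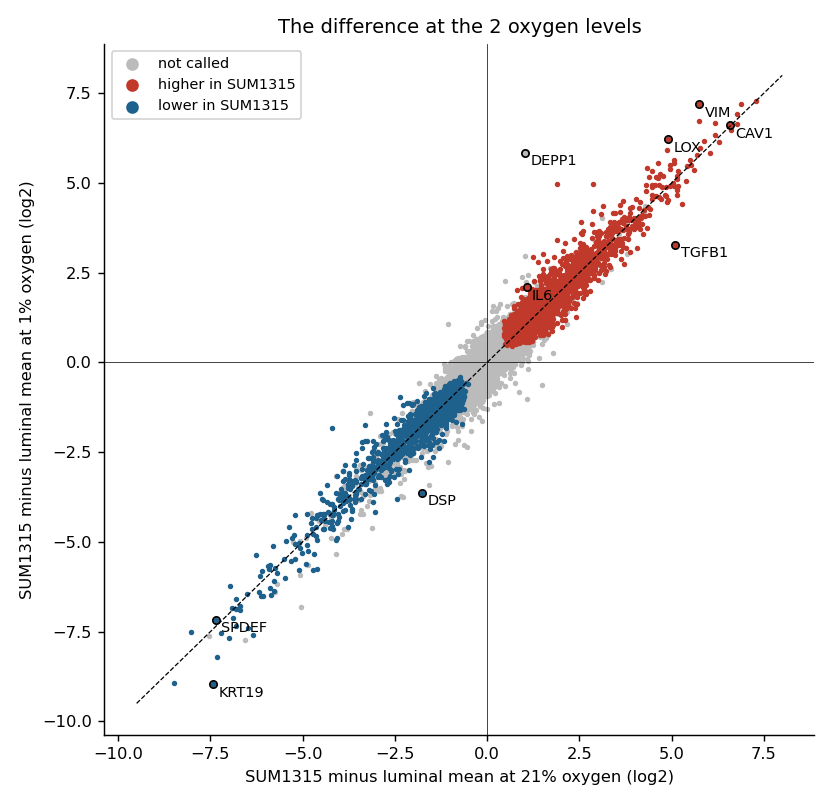
Difference between SUM1315 and the mean of the luminal lines for each tested gene at 21% oxygen (horizontal axis) and at 1% oxygen (vertical axis), on the log2(RPKM + 1) scale. The dashed line marks equal differences. Most genes lie along it, and DEPP1, at 1.02 and 5.84, lies farthest above it of the genes named.

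The genes whose levels over the 6 libraries were most like VIM were ISL2, a homeobox factor (Pearson r = 0.9998), VASH1, a tubulin carboxypeptidase (0.99945), the collagen cross-linker LOX (0.99933), the zinc finger gene ZNF454 (0.99922) and PHYKPL, an enzyme of lysine breakdown (0.99898). All 5 shared the order of VIM: hypoxic SUM1315 first, normoxic SUM1315 second, and the luminal lines below. VASH1, for example, stood at 8.98 and 5.91 RPKM in SUM1315 and between 0.0807 and 0.286 RPKM in the luminal lines. With 2 libraries high and 4 low, any gene of SUM1315 with more RNA at 1% oxygen comes near to 1 on this measure.

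Genes called in one direction were unevenly spread over the chromosomes. By RefSeq positions (GRCh38.p14), matched for 93.6% of the tested genes, 66 of 148 tested genes on chromosome 18 were higher (44.6%), followed by 35.7% on chromosome 13, 29.6% on chromosome 15 and 29% on chromosome 2. Chromosome 20 had the fewest higher (10.4%) and the most lower (17.1%), then chromosome 11 with 12.6% and 14.3%. The longest runs of neighbouring tested genes all called higher were 12 genes from IMPA2 to RNMT at chr18:11981507-13764556, 11 from LHFPL6 to RGCC at chr13:39342892-41470871, and 11 from HNRNPAB to HNRNPH1 at chr5:178204533-179634784, which include ZNF454 and PHYKPL of the genes most like VIM. The longest runs called lower were on chromosome 1, with 8 genes from RABGAP1L to TOR3A at chr1:174159520-179095996 and 7 from FLAD1 to EFNA1, 3 of them ephrins, at chr1:154983344-155134899.

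**Figure D5:**
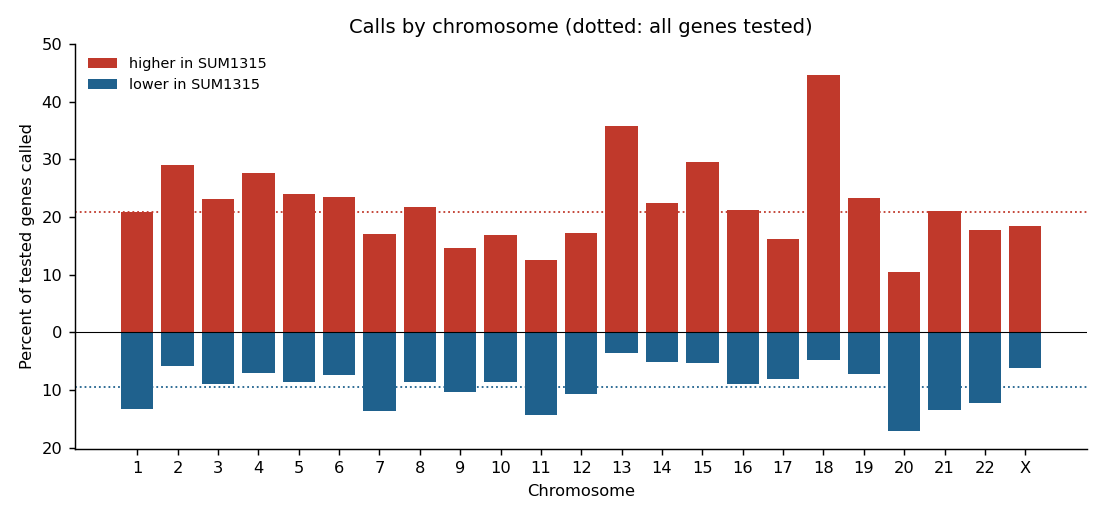
Percent of the tested genes on each chromosome called higher (red, upward) or lower (blue, downward) in SUM1315. Dotted lines mark the shares over all tested genes, 20.8% and 9.42%. Chromosomes 18 and 13 have the highest bars upward and chromosome 20 the longest downward.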

How the data were processed

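RNA bound to polysomes was sequenced from 6 libraries of 3 cell lines, 1 per line and oxygen level. The values are RPKM per gene as deposited by the authors. Trimmomatic, HISAT2, SAMtools, Partek and the build GRCh38 (hg38) are named in the submitters' processing notes, with no versions. The sources used here give neither the strand setting nor the fractions pooled. Counts were not analysed, so the depths given are those that steps between low RPKM values imply, with 63.4% to 66.3% of values whole within 0.02 reads. Differences were tested with limma 3.58.1 (R 4.3.3) on log2(RPKM + 1), with a mean-variance trend, oxygen level as a covariate and Benjamini-Hochberg adjustment over all 12312 genes at 1 RPKM or more in 2 libraries. The procedure was tested on simulated data. The simulated libraries varied independently and held no difference between SKBR3 and T47D. Such data cannot show how often genes are called in error where libraries of a line are alike. With 2 libraries against 4, an exact permutation test of 1 gene cannot go below p = 0.0667 if the libraries are exchangeable. That floor sets aside the pairing by oxygen level and the likeness of libraries of one line. With the line as the unit, 1 against 2, an exact permutation test cannot go below p = 0.333. No label says that libraries come from separate cultures.

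The members and the 31 gene lists were chosen with earlier results of these data known. Named genes are the 4 markers, the 10 largest and 10 most abundant calls in each direction, the 3 largest differences of each list in each direction, the 5 strongest oxygen interactions in each direction and the 5 genes most like VIM. All others were chosen after their values were seen. A few genes that this rule or that choice would name are not reported here.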

Additional observations from a re-analysis of the deposited data

Results flagged for a closer look

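In 9 of 220 named genes checked, 1 of the 4 luminal libraries stood apart from the other 3, its gap to the nearest neighbour being larger than Dixon's critical share of the luminal range. For 4 values drawn alike, chance gives about 1 such group in 20. These 4 libraries come from different lines and oxygen levels, so that rate need not hold for them. IGFBP3 was 5.19 RPKM in hypoxic SKBR3, the highest luminal value. PPIA was 835 RPKM in hypoxic SKBR3. PLOD2 was 7.48 RPKM in normoxic SKBR3, the lowest luminal value. SPDEF was 290 RPKM and RACK1 104 RPKM in normoxic SKBR3, each the highest. RAB25 was 216 RPKM in hypoxic T47D. IGF2BP3 was 0.0784 RPKM and EIF2S1 16.8 RPKM in normoxic T47D, and PRRG4 was 9.35 RPKM there.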

How the results depend on the processing

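No alternative called a gene in the direction opposite to its main call, and no named gene that was called changed sign. Among named genes that were not called, PGR (0.0312) and CDH1 (0.032) became positive without the T47D line, and OCLN became negative without it (-0.012) and under quantile normalization (-0.0164). Genes higher and lower numbered 1513 and 1074 with 1 RPKM required in 3 libraries, 1455 and 604 with it required in both groups, 571 and 254 with cell line as a correlated unit, 5423 and 3743 with cell line as a fixed term, 5112 and 3753 without the SKBR3 line, and 5340 and 3315 without the T47D line. With the mean of each line as 1 value, limma called 0 and 0, while 1818 genes had an unadjusted p under 0.05. Leaving out 1 library gave 610 to 1943 higher and 104 to 923 lower, the lowest without a SUM1315 library. Oxygen level pairs the libraries across lines, and without it as a block 2784 were higher and 1386 lower. Against each luminal line in turn, 1311 genes were lower with 1 RPKM required in both groups. Oxygen dependence was called in 840 genes with no filter on level, 829 of them under 1 RPKM in every library, and could not be fitted without either SUM1315 library. Other pseudocounts, scalings and limma settings kept both counts within 1.5 times. Equal RPKM sums was chosen after seeing the data. Of 180 named genes called, 81 passed with each library left out in turn.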

Other observations

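Gene families grouped after their values were seen are given beside the 20.8% higher and 9.42% lower of all tested genes. Of 50 keratins in the table, 36 were below the filter, and of the 14 tested 5 were lower (35.7%) and none higher. Of the 14, 11 passed the filter only through the luminal lines, and of the 3 at 1 RPKM or more in both groups 2 were lower. Of 12 collagens tested 9 were higher (75%) and 1 lower, and 8 of the 12 passed the filter only through SUM1315. Of 339 zinc finger ZNF genes, 23.3% were higher, near that background, and 2.95% lower, with a median difference of 0.457. Of 82 mitochondrial ribosomal protein genes 4 were higher (4.88%) and 16 lower (19.5%). Of 37 proteasome subunits 5 were higher (13.5%, under the background) and none lower. Among 15 S100 genes, 1 was higher and 3 lower: S100A2 stood at 30.2 and 39.5 RPKM in SUM1315 against 1.29 to 2.99 RPKM (3.62 ± 0.30), the reverse of S100A16.

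Differences moved with transcript length over all tested genes. In 4 groups of about equal size, from the shortest to the longest transcripts, the median difference was -0.149, 0.191, 0.337 and 0.377, and the share called higher was 14.2%, 19.6%, 23.4% and 26.2%.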
